A study of Mus musculus with 6 samples.

Results

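The replication-dependent histone genes encode the bulk histones of chromatin. They were taken as the protein-coding genes of GENCODE M21 whose symbol begins with Hist1h, Hist2h, Hist3h or Hist4h, which gave 67 of the 55487 genes counted. By class these were 6 genes of the linker histone H1, 18 of H2A, 18 of H2B, 12 of H3 and 13 of H4. They lie in 4 clusters of the GRCm38 genome. The Hist1 cluster holds 54 genes (chr13:21715763-23934851), the Hist2 cluster 10 (chr3:96219865-96270132) and the Hist3 cluster 2 (chr11:58948920-58956830). Hist4h4 stands alone (chr6:136801553-136804415).

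The counts came from tumour-associated macrophages of C57BL/6 mice, with no modified allele named in the labels. Lewis lung carcinoma cells, a transplantable mouse lung cancer line, had been injected under the skin, and tumours were taken on days 15-17. Cells positive for CD11b and F4/80 and negative for Ly6C and Ly-6G were sorted, and surface MHC class II, the antigen-presenting molecule, set a high gate and a low gate. Each title, MHC-IIhigh or MHC-IIlow, has 3 libraries of rRNA-depleted total RNA, numbered 1 to 3 by replicate and batch (high 1 to high 3 and low 1 to low 3 below). Whether the libraries of a title came from separate mice is not stated, so the p-values reflect variation among these libraries only, and it may be technical.

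In dividing cells these genes are transcribed when DNA is copied, and their products package the new DNA. H2A, H2B, H3 and H4 form the nucleosome core, and H1 binds the DNA between nucleosomes. Most of their mRNAs end after a short hairpin, the histone stem-loop, in place of a poly(A) tail. SLBP binds this hairpin and serves in 3′ end processing and translation. Library preparation from total RNA does not depend on a poly(A) tail and so keeps these mRNAs, and some members also give polyadenylated transcripts.

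The hairpin itself was found in the transcript models of 44 members, of 52 whose model runs at least 30 bases past the stop codon. The search took the first 100 bases past the stop, on the transcript strand, for a stem of 6 base pairs beginning GG and a loop of 4 bases beginning TT. The same search matched 8 of 20896 other protein-coding genes (0.0383%). The forms that occurred are listed because the stem divides H4 from the other classes; the stem is in capitals and the loop in lower case, 5′ to 3′, as DNA of GRCm38.
Hist1h1c (chr13:23739512-23739527, plus strand; 26 members): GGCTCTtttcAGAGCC
Hist1h3e (chr13:23561903-23561918, minus strand; 6 members): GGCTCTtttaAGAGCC
Hist2h2ac (chr3:96220418-96220433, minus strand; 1 member): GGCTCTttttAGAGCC
Hist1h4d (chr13:23581950-23581965, plus strand; 7 members): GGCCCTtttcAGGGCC
Hist1h4i (chr13:22040966-22040981, minus strand; 2 members): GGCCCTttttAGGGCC
Hist1h4b (chr13:23757366-23757381, plus strand; 2 members): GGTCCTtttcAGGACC

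All hairpins found in H1 (4), H2A (11), H2B (10) and H3 (8) had the stem GGCTCT. Of the 11 found in H4, 9 had GGCCCT and 2 had GGTCCT. The gene models beyond the hairpin differ: 26 members end near it and 18 run on for over 200 bases. A further 15 models stop at the coding sequence and so cannot show it. In 4 models with a long 3′ UTR, Hist1h2bc and Hist2h2be among them, and in 4 with a short one the search found no hairpin.

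MHC class II transcripts went against the titles: H2-Aa, an MHC class II chain, reached 6.69 CPM (counts per 1000000 reads in genes) at most in the libraries titled MHC-IIhigh and was at 1377, 1166 and 1506 CPM in those titled MHC-IIlow. All 5 listed MHC class II genes were called lower in titled high, so directions are given between titles. Adgre1, which encodes F4/80, was at 151 to 372 CPM in all 6 libraries. Low 3 stood apart. The rRNA gene CT010467.1 held 47.3% of the gene reads there and 3.85% to 13.5% in the other libraries. With rRNA and mitochondrial genes set aside, low 3 kept 4669283 reads and the others 11670849 to 17982808. Its factor from TMM scaling (the trimmed mean of M-values) was 0.55, and those of the others 1.09 to 1.19. Reads in genes ran from 10202879 in low 3 to 25473051 in high 3, and reads in histone members from 4524 to 8435. CPM are on TMM-scaled library sizes unless said otherwise, and 3 reads are worth 0.107 to 0.535 CPM.

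The 67 genes together were at 404.8, 322.6 and 301.6 CPM in high 1 to 3 and at 345.3, 238.8 and 807.3 CPM in low 1 to 3. Low 3 was the highest library and low 2 the lowest, so the libraries titled MHC-IIlow lay on both sides of those titled MHC-IIhigh. The log2 ratio of titled high to titled low within a batch was 0.23 in batch 1, 0.43 in batch 2 and -1.42 in batch 3. The ratio of the means was -0.44, and it was 0.23 without low 3. The group means followed 1 library.

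**Figure D1:**
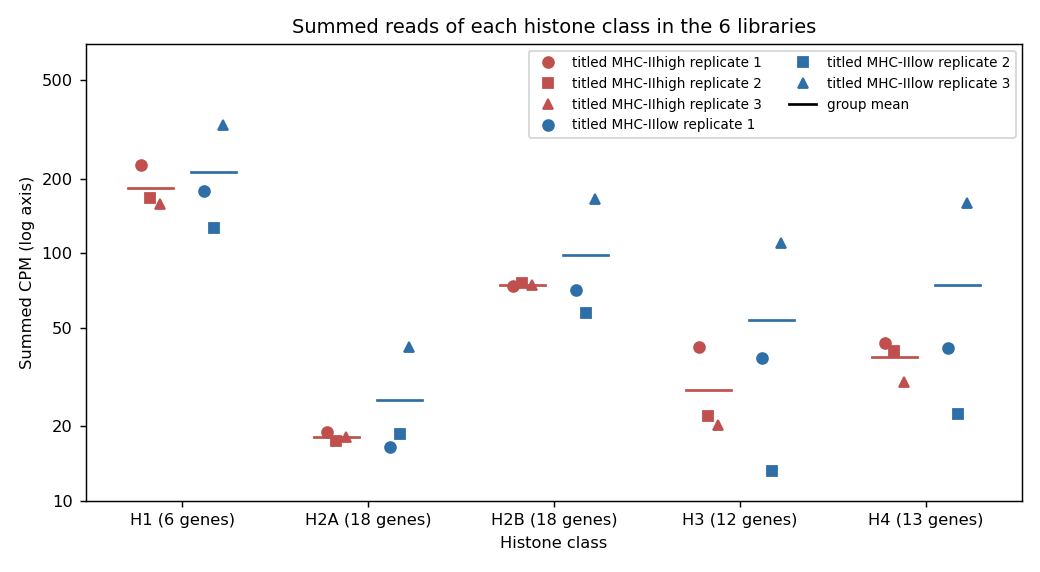
Summed CPM of the members of each histone class (x axis) on a log axis, 1 point per library, with red for titled MHC-IIhigh, blue for titled MHC-IIlow, marker shape for the replicate and a bar for the mean of 3. In all 5 classes the highest point is the blue triangle, low 3, and in H1, H2B, H3 and H4 the lowest is the blue square, low 2.

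H1 contributed most of any class, 41.0% to 56.0% of member reads in each library. Its sum was 226.8, 166.9 and 158.5 CPM in high 1 to 3, against 178.6, 127.0 and 330.9 CPM in low 1 to 3. H2A gave 19.0, 17.4 and 18.1 CPM, against 16.5, 18.7 and 41.8 CPM. H2B gave 73.6, 76.0 and 74.5 CPM, against 71.1, 57.4 and 165.6 CPM. In these core classes the libraries titled MHC-IIhigh lay close together, with an SD of 0.83 CPM for H2A and 1.20 CPM for H2B (n = 3), and low 3 was over 2 times the next library. H3 gave 42.0, 22.01 and 20.2 CPM, against 37.7, 13.2 and 110.1 CPM. H4 gave 43.4, 40.3 and 30.2 CPM, against 41.4, 22.5 and 159.0 CPM. Within batch 3 the log2 ratio was -2.45 for H3 and -2.39 for H4, against -1.06 for H1, -1.20 for H2A and -1.15 for H2B.

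How far low 3 exceeded the others depended on the denominator. As CPM on all reads in genes, unscaled, the histone sum was 479.8, 359.0 and 331.1 in high 1 to 3 and 374.7, 274.3 and 443.4 in low 1 to 3, so high 1 was highest. As CPM on the reads of other than rRNA and mitochondrial genes it was 623.3, 510.9 and 469.1 against 519.5, 385.5 and 968.9, and low 3 was again highest. Low 2 was the lowest library by all 3 denominators.

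In edgeR's quasi-likelihood test, 0 of the 50 members that passed the filter on low counts were called at a Benjamini-Hochberg adjusted p of 0.05, and the smallest adjusted p was 0.275. Over all 14140 genes tested, 63 were called (0.446%), 13 higher (0.0919%) and 50 lower (0.354%) in the libraries titled MHC-IIhigh. At an unadjusted p of 0.05, 2 members passed, Hist1h2ad and Hist1h2bc, against 12.1% of all genes. DESeq2 called 0 members as well, and 2.24% of all genes, with a smallest adjusted p of 0.153. Without low 3, 0 of 52 members tested were called, against 70 of all 14920 genes tested, and the smallest edgeR adjusted p was 0.283. One member, Hist1h3d, was called when low 2 was left out, with a log2 fold change of -1.24 (SE 0.29) and an edgeR adjusted p of 0.0416; that fit called 7.16% of all genes.

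By sign, 44 of the 50 fold changes were negative (lower in titled high) and 6 positive. The median log2 fold change was -0.52, against -0.02 over all genes tested. By class the medians were -0.26 for 5 H1 genes, -0.33 for 11 H2A, -0.61 for 14 H2B, -0.76 for 9 H3 and -0.89 for 11 H4 genes. All of these medians changed sign when low 3 was left out, to 0.17, 0.05, 0.25, 0.46 and 0.42. With total counts as the scaling the median of all genes moved to 0.25 and that of the members to -0.01, which is -0.27 relative to all genes.

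**Figure D2:**
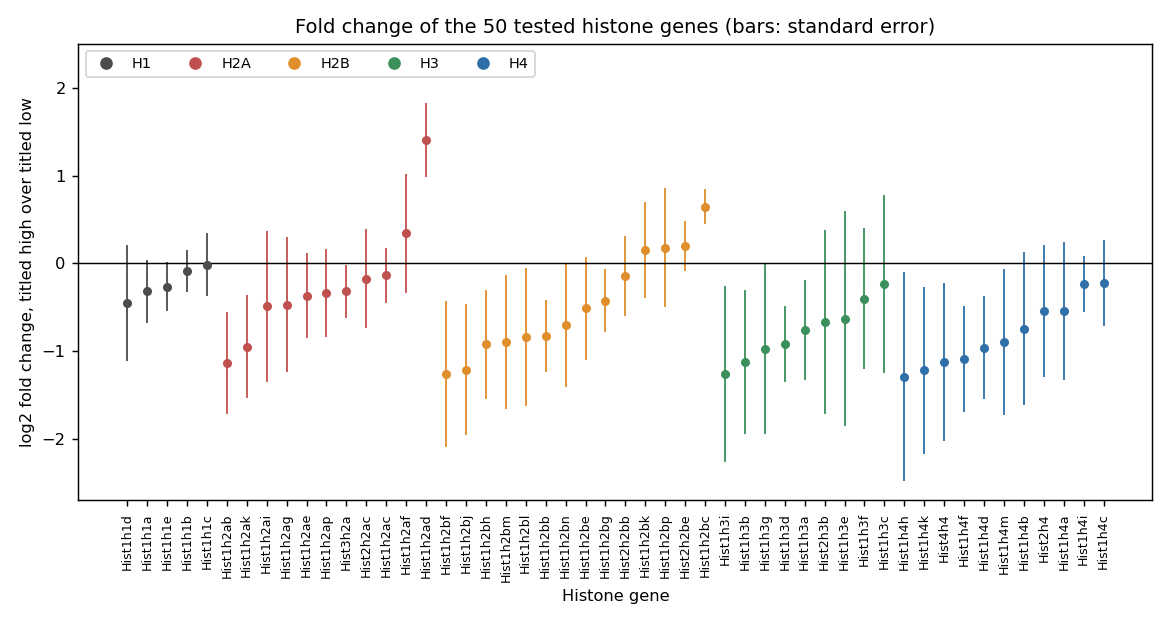
Log2 fold change, titled MHC-IIhigh over titled MHC-IIlow, of the 50 tested members (x axis, ordered within class), each point with its standard error and coloured by class. Of the 50 points, 44 lie below 0 and none passed the adjusted threshold; Hist1h2ad and Hist1h2bc lie highest.

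The count of members higher in the library titled high differed between batches. In batch 1, 30 of 50 members were higher in the library titled high, in batch 2, 43, and in batch 3, 3; over all genes tested the share was 50.7%, 50.6% and 51.2%. For H3, 9 of 9 tested genes were higher in the library titled high in batch 2 and 0 of 9 in batch 3. H4 gave 11 of 11 and 0 of 11. Low 3 was the highest of 6 libraries for 46 of 50 members (92%), against 36.8% of all genes, and low 2 the lowest for 31 (62%), against 15.6%. The 3 libraries of a title all lay above the other 3 for 2 members, Hist1h2ad and Hist1h2bc, both with titled high above; the share over all genes was 19.9%, made up of 10.5% with titled high above and 9.48% below.

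**Figure D3:**
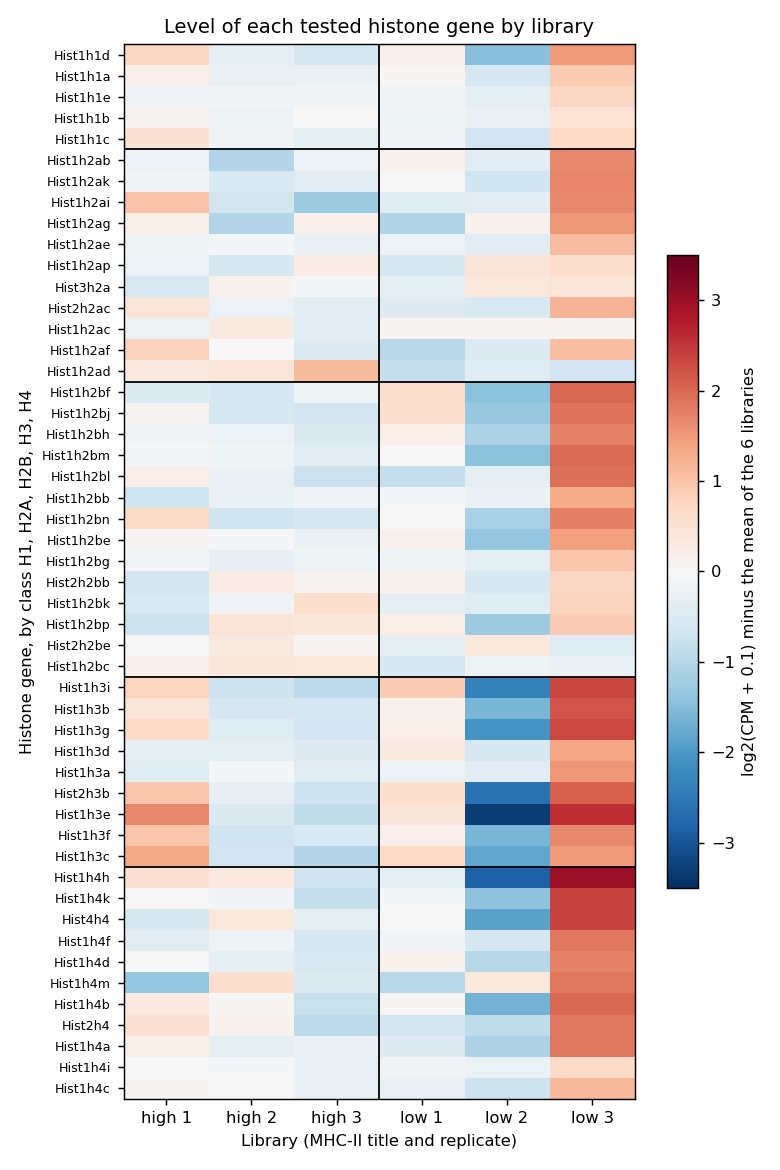
Colour gives log2(CPM + 0.1) of each tested member (rows, by class) minus its mean over the 6 libraries (columns). The column of low 3 is red in nearly all rows, low 2 is blue in most of H3 and H4, and Hist1h2ad, Hist1h2ac, Hist1h2bc and Hist2h2be do not follow low 3.

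Among H1 genes, Hist1h1c and Hist1h1e (the linker histones H1.2 and H1.4) were the most abundant, at 11.9% to 20.7% and 10.9% to 17.8% of member reads. Hist1h1c was at 83.9, 54.5 and 46.9 CPM in high 1 to 3 and at 54.9, 37.4 and 95.7 CPM in low 1 to 3. Hist1h1e was at 49.5, 49.8 and 48.8 CPM, against 48.4, 42.4 and 88.2 CPM. The 3 libraries titled high differed by under 1 CPM for Hist1h1e, and low 3 was above all others for both genes. Hist1h1a, which encodes H1.1, was at 31.1, 22.9 and 23.2 CPM, against 28.4, 17.8 and 50.9 CPM. Hist1h1b, which encodes H1.5, was at 27.4, 22.7 and 25.7 CPM, against 23.2, 21.7 and 36.2 CPM. Per kilobase of exon, the mean levels of Hist1h1c (39.9 CPM per kb), Hist1h1a (39.2) and the H2B gene Hist1h2bb (39.3) were the highest of all members, and Hist1h1b (35.2) and Hist1h1e (28.2) came next. Hist1h1t, the testis linker histone, had 20 reads in all 6 libraries together.

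The promoter of Hist1h1c is shown because this gene gave the most histone reads, with the CCAAT box and the H1 box (AAACACA) in capitals. It runs from 250 bases before to 50 after the RefSeq start (chr13:23738557-23738856, plus strand, GRCm38.p6).
Hist1h1c promoter: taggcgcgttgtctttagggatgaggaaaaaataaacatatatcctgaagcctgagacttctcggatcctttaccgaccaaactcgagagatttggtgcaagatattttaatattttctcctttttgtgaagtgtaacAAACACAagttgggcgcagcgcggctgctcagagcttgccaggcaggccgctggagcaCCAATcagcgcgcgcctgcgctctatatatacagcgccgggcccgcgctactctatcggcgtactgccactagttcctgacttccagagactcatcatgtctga

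RefSeq promoters were matched for 62 members. On either strand, AAACACA was in 5 of 6 H1 promoters, 2 of 18 H2A, 2 of 16 H2B and none of the H3 (10) or H4 (12) promoters, against 7.14% of 27025 RefSeq promoters. CCAAT was in every matched H1, H2A, H2B and H3 promoter and in 3 of 12 H4 promoters, against 37.9% of RefSeq promoters. The octamer ATTTGCAT was in 7 H2A and 6 H2B promoters and in no other class, against 1.75%, and TATAAA was in 35 of the 62, against 14.2%. The 4 motifs were searched separately and a match is a run of letters, not a binding site.

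H2A members had low counts, and the overlaps and shared stretches given below may understate their levels. Hist3h2a, the only H2A gene of the Hist3 cluster, was at 3.45, 5.48 and 4.86 CPM in high 1 to 3, against 4.05, 6.58 and 6.78 CPM in low 1 to 3. Hist1h2ak was at 2.73, 1.96 and 2.18 CPM, against 2.93, 1.76 and 9.64 CPM. Hist1h2ab was at 1.78, 0.98 and 1.79 CPM, against 2.34, 1.55 and 6.96 CPM. The last of these libraries, low 3, was over 3 times the level of any other for Hist1h2ak, while for Hist3h2a it was next to low 2. Hist1h2ac did not differ between low 1, 2 and 3, at 2.34, 2.33 and 2.32 CPM, and was at 1.95, 2.76 and 1.68 CPM in high 1 to 3. Hist1h2af, among the 3 most positive fold changes (log2 0.34, SE 0.67), ran from 0.32 to 1.61 CPM and the groups overlapped.

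Hist1h2ad was higher in all 3 libraries titled high, at 1.17, 1.25 and 2.07 CPM against 0.48, 0.65 and 0.54 CPM. Its log2 fold change was 1.41 (SE 0.42) with an edgeR adjusted p of 0.275, and within batches the log2 ratio was 1.13, 0.84 and 1.77. It rests on 135 reads in all, 3 of them in low 3. Its neighbour Hist1h2bf, an H2B gene on the opposite strand whose start lies 184 bases away, was among the most negative, at 0.50, 0.45 and 0.64 CPM against 1.17, 0.20 and 3.21 CPM (log2 -1.26, SE 0.83, edgeR adjusted p 0.501). Low 3 was highest for Hist1h2bf and among the lowest for Hist1h2ad. The promoter of Hist1h2ad is shown because it spans both starts (chr13:23574131-23574430, plus strand, GRCm38.p6), with CCAAT on either strand and TATAAA in capitals; the TATAAA lies 30 bases after the annotated start.
Hist1h2ad promoter: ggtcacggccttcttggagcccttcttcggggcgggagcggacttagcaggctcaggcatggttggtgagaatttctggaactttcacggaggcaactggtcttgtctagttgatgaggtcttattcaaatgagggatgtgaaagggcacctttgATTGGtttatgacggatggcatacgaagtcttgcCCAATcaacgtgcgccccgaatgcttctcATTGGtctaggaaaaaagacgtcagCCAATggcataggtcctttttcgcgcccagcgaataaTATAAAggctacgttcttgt

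Among the 67 members lie 13 such head-to-head pairs, each of an H2A and an H2B gene except for Hist1h2bh with the H3 gene Hist1h3f. In 8 of the 13 both genes passed the filter. In 5 of the 8 both fold changes were negative, and in 3 the signs differed: Hist1h2bf and Hist1h2ad, Hist1h2ac (-0.13) and Hist1h2bc (0.65), and Hist2h2ac (-0.18) and Hist2h2be (0.20).

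Of the H2B genes, Hist1h2bb was the most abundant by mean of the 6 libraries, at 10.9, 15.2 and 16.5 CPM in high 1 to 3 and 17.5, 15.3 and 44.4 CPM in low 1 to 3. Hist1h2bc came next and did not follow low 3, at 20.9, 24.4 and 23.9 CPM against 12.4, 16.3 and 15.5 CPM. The groups did not overlap for Hist1h2bc. Its log2 fold change was 0.65 (SE 0.20) with an edgeR adjusted p of 0.292, and within batches the log2 ratio was 0.75, 0.58 and 0.62. The fold was 1.56 on the CPM means of 23.1 ± 1.86 and 14.8 ± 2.06 (SD, n = 3). Hist1h2bc and Hist2h2be are the tested members with a long 3′ UTR and no hairpin found, and for neither was low 3 the highest library. The same held for Hist1h2ad and Hist1h2ac, whose models do hold the hairpin. A link between the hairpin and the level in low 3 was not tested. Hist2h2be was at 5.95, 7.48 and 6.29 CPM against 4.69, 7.77 and 4.46 CPM, with overlapping groups. Hist1h2be was at 7.35, 6.77 and 6.08 CPM against 7.89, 2.74 and 19.5 CPM, and Hist1h2bg at 7.01, 6.10 and 6.61 CPM against 6.66, 5.97 and 14.6 CPM, with low 3 highest in both. The exons of Hist1h2be overlap those of Hist1h1e on the same strand, so their reads may be split or set aside.

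Among H3 genes, Hist1h3d led, at 10.2, 9.98 and 9.15 CPM in high 1 to 3, against 15.8, 8.50 and 32.3 CPM in low 1 to 3. Hist1h3b was at 7.07, 3.43 and 3.47 CPM against 5.86, 1.68 and 24.4 CPM. Hist1h3e was at 7.12, 1.47 and 1.11 CPM against 2.93, 0.12 and 13.4 CPM. Low 2 and low 3, which bear 1 title, were the lowest and highest libraries for these 3 genes, and for Hist1h3e low 2 was at the level of 3 reads. Hist1h3f was at 5.68, 1.69 and 1.93 CPM against 3.20, 0.86 and 9.28 CPM. Hist1h3i, among the 3 most negative (log2 -1.26, SE 1.00), was at 3.28, 1.11 and 0.97 CPM against 3.57, 0.29 and 9.99 CPM. The groups overlapped for all 9 tested H3 genes.

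Of the genes for the core histone H4, Hist1h4d led at 20.9, 16.6 and 14.6 CPM in high 1 to 3, against 22.7, 10.5 and 70.0 CPM in low 1 to 3. Hist4h4 was at 2.17, 4.23 and 2.61 CPM against 3.30, 0.82 and 17.3 CPM. Hist1h4f was at 2.84, 3.34 and 2.40 CPM against 3.52, 2.45 and 13.6 CPM. In each, low 3 was at least 3 times the next library, and the other 5 libraries overlapped between titles. Hist2h4 was at 4.90, 3.70 and 1.75 CPM against 2.13, 1.80 and 12.5 CPM. Hist1h4h had the most negative fold change of all members (log2 -1.29, SE 1.19, edgeR adjusted p 0.596), at 2.67, 2.32 and 1.07 CPM against 1.44, 0.16 and 15.0 CPM. Its within-batch log2 ratios were 0.85, 3.20 and -3.69.

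The 17 members that failed the filter had 0 to 52 reads over all 6 libraries. Hist2h2aa1 and Hist2h3c1 had none, and every stretch of 50 bases in them also occurs in another gene. Over the members, the median share of such stretches was 54.1%, with 1.13% for H1, 73.0% for H2A, 46.9% for H2B, 62.0% for H3 and 39.5% for H4. It was at least 50% for 34 members. Reads placed at several sites made up 7.60% to 17.4% of a library's listed reads and were not counted to genes, so levels of the core histone genes may be understated and comparisons of level between members are uncertain. For all 18 H2A genes an exon is overlapped by a gene model on the other strand, against 0 H1 genes and 1 each of H2B, H3 and H4. The strand setting of the counting is not given in the sources used here. The strands therefore cannot be told apart, and reads of H2A genes may be mixed or set aside.

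Base composition also moved with the libraries. The log2 CPM of each gene, minus its mean over the 6 libraries, was set against GC content. Across genes, the slope per 10 percentage points was 0.82 in low 3 and 0.21 in low 1. It was -0.34 in low 2 and 0.03, -0.26 and -0.46 in high 1 to 3. Within the tested members the slope was 0.33 in low 3, -0.07 in low 1 and -0.06 in low 2. In high 1 to 3 it was 0.12, -0.21 and -0.11. Tested members had a median GC of 56.4%, against 48.7% for all genes. With a GC offset per library the members' median log2 fold change was -0.03 and 0 members were called, where that fit called 2.54% of all genes. With the offset and the batch as a block it was 0.05. The part of RNA quality, rRNA content and GC content in the level of low 3 was not tested.

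Other genes of the pathway were compared by lists. Of 10 tested replacement variants, histones also made outside S phase, 0 were called, against 0.446% of all genes tested. Their median log2 fold change was -0.22. H1f0, a linker variant of resting cells, was at 42.6, 43.9 and 40.7 CPM in high 1 to 3 and at 47.1, 52.3 and 48.5 CPM in low 1 to 3, higher in all 3 libraries titled low but not called (edgeR adjusted p 0.526). H3f3b, which encodes H3.3, was at 643.3, 666.2 and 684.5 CPM against 511.9, 604.3 and 456.5 CPM, also without overlap and not called (edgeR adjusted p 0.451). Summed, the variants were at 931.4, 946.0 and 988.0 CPM against 793.1, 914.2 and 774.0 CPM. The genes of H3.3, H3f3a and H3f3b, made up 68.9% to 81.8% of that sum and were the 2 tested variants lowest in low 3. Low 3 was the highest library for 5 of the 10, among them H2afx at 17.5 CPM (4.21 to 7.30 CPM elsewhere) and Cenpa at 36.0 CPM. Over all genes tested, low 3 was the highest library for 36.8% and the lowest for 37.1%.

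For the transcription factors of histone genes and their partners 0 of 8 were called (median -0.07), for processing and decay 0 of 17 (0.16), and for chaperones 0 of 21 (0.03). The share called over all genes tested was 0.446%, so 0 in lists this short says little. Upf1, which acts in decay of histone mRNA, was at 25.0, 15.2 and 15.5 CPM against 22.9, 13.2 and 64.1 CPM. Over all genes tested, low 3 was the highest library for 36.8% and the lowest for 37.1%, so an extreme there is common. It was the highest library for 6 of the 17 processing and decay genes, Upf1 among them, and the lowest for 9. Slbp, whose product binds the hairpin, was one of the 9, at 28.3, 28.2 and 28.7 CPM against 24.4, 32.9 and 18.7 CPM. For S phase and DNA replication 0 of 24 were called, 14 positive and 10 negative, with a median of 0.17. Pcna, the sliding clamp of DNA polymerase, was at 71.0, 72.9 and 92.1 CPM against 66.8, 66.5 and 53.7 CPM, lowest in low 3. Mcm5, a subunit of the replicative helicase, was at 50.1, 39.7 and 44.1 CPM against 69.8, 37.0 and 111.9 CPM, highest in low 3. The summed S phase list was at 768.4, 739.6 and 881.1 CPM against 786.7, 670.2 and 936.2 CPM, and the ratio of histone genes to it was 0.862 in low 3 and 0.342 to 0.527 elsewhere. For G2 and mitosis 0 of 22 were called, 20 positive and 2 negative, with a median of 0.41. Cdk1, the mitotic kinase, was at 19.6, 29.0 and 31.8 CPM against 15.2, 20.7 and 19.8 CPM.

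**Figure D4:**
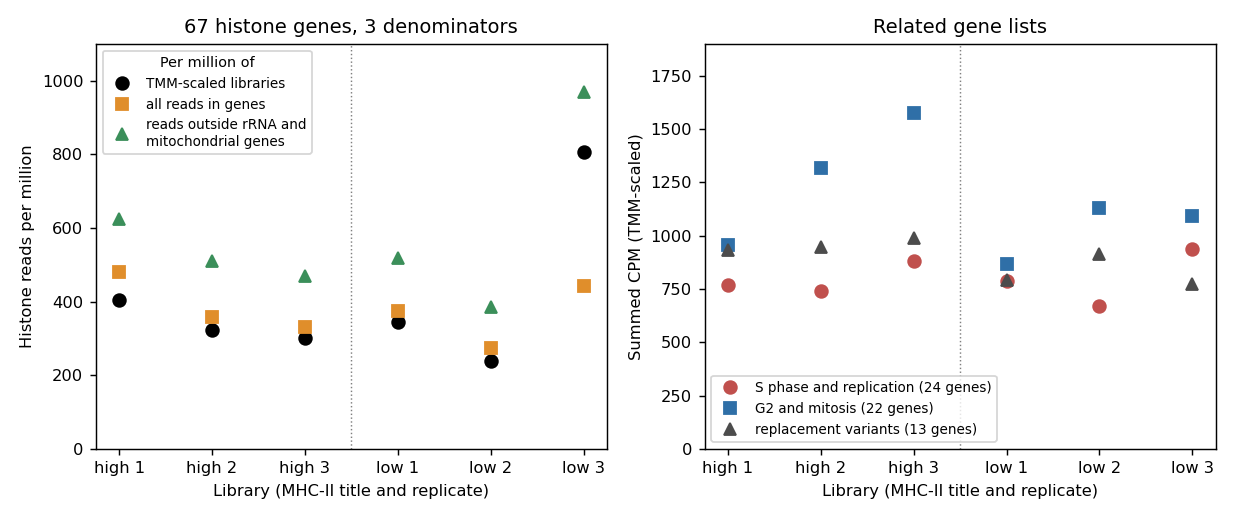
Left, CPM of the 67 histone genes on 3 denominators in each library; right, summed CPM of 3 related lists in the same libraries. On the left low 3 stands highest on 2 of 3 denominators; on the right its S phase sum is 936.2 CPM, near the 881.1 CPM of high 3.

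Markers of other cell types were compared between the titles as well. Of 7 tested dendritic cell markers 4 were called lower in titled high, all 7 had negative fold changes and groups that did not overlap, and the sum of the 10 listed was 47.9 to 90.9 CPM there, against 276 to 410 CPM. Of 10 stromal, endothelial and epithelial markers tested 7 had negative fold changes, 3 of these without overlap, and 1, Cdh1, was called lower. A further 3 were positive, and for 1 marker titled high lay above without overlap. Over all genes tested titled high lay below without overlap for 9.48% and above for 10.5%, and 0.446% were called. The sums of the stromal, endothelial and epithelial markers were 89.0 to 349 CPM against 178 to 516 CPM. Monocyte and neutrophil markers (0 of 4 called) summed to 175 to 262 CPM against 316 to 776 CPM. Most of that sum was the chemokine receptor Ccr2 (160 to 246 CPM against 286 to 763 CPM), while S100a8 had the opposite sign (log2 1.20, edgeR adjusted p 0.410). T, NK and B cell markers (0 of 2) summed to at most 2.36 CPM against 3.93 to 4.42 CPM. Ly6g, Camp, Cd3e, Cd3d and Cd8a had no read in any library. The macrophage genes of the gate and core summed to 9815 to 11801 CPM against 6680 to 11505 CPM, with 0 of 10 called. The part of other cell types in the histone values was not tested. A difference in the share of cycling cells and one in histone mRNA per cell cannot be told apart in bulk RNA.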

How the data were processed

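Each deposited file lists whole-number read counts for 55487 Ensembl genes in 1 library, followed by 5 summary lines. Per the submitters' processing notes, the authors used FastQC, Trimmomatic, STAR, HTSeq, DESeq2 and GRCm38; their versions, the strand setting and the annotation release were not given in the sources used. Reads in no feature were 35.2% to 49.4% of listed reads and stayed out of library sizes. GENCODE M21 named 55227 genes. The test was run with edgeR 4.0.16 under R 4.3.3, with TMM and the default filter on low counts. It was a quasi-likelihood test of titled MHC-IIhigh over titled MHC-IIlow, with Benjamini-Hochberg adjustment over all genes tested. A standard error is the fold change over the square root of F. Class sums include untested members and have no test.

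Members and lists were chosen with earlier results of these data known. Values by library are given for the 4 tested members of highest mean CPM in each class and the 3 most positive and 3 most negative fold changes. From the lists, only some of the up to 4 genes of smallest p are shown. None is shown from the transcription factor and chaperone lists. Genes outside these choices (Hist2h2be, Hist1h1t, H3f3a, Slbp) were chosen after their values were seen.

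The labels give each batch number to 1 library of each title, so the numbers pair the libraries. Correlations of same-numbered deviations from group means were 0.16, 0.33 and -0.12. Those of differently numbered libraries ran from -0.49 (high 1 with low 2) to 0.35 (high 1 with low 3), so same-numbered libraries were not the most alike throughout. Alternatives were RLE factors, total counts, DESeq2 1.42.0, other filters, the block, removal of rRNA and mitochondrial genes, a GC offset (loess span 0.4), and leaving out libraries or batch 3. Hairpins were searched in GENCODE M21 transcripts, and promoters came from RefSeq.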

Additional observations from a re-analysis of the deposited data

How the results depend on the processing

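The count of histone members called was 0 under RLE factors, total counts, DESeq2, both other filters, the replicate block, removal of rRNA and mitochondrial genes, the GC offset with and without the block, and without batch 3, and 0 to 1 when each library was left out. The 1 was Hist1h3d without low 2. Over all genes 63 were called. RLE factors called 62, total counts 60, the filter of 1 CPM in 3 libraries 61, and removal of rRNA and mitochondrial genes 64. DESeq2 called 374, no filter 549 and the replicate block 41. The GC offset called 359, the GC offset with the block 598 and the fit without batch 3 28. Leaving out 1 library gave 8 to 1030, the highest without low 2. Of the 6 pathway lists 0 genes were called, 1 with the GC offset and the block (Cenpa), and 0 to 2 leaving out 1 library (Ccne2 and Mcm5 without low 2). The members' median log2 fold change ran from -0.95 without low 2 to 0.33 without low 3; it was 0.33 without batch 3 and -0.29 under the replicate block. The block changed no call of a member. Of 790 single-member values under alternatives, 1 crossed the threshold and 0 reversed past it. Leaving out a library leaves 2 against 3, with the spread pooled over both titles. Low 3 has the fewest reads, and members near 3 reads there, such as Hist1h2ad, have little precision.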

Other observations

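Among histone symbols left out because they are not protein-coding, the processed pseudogene Hist3h2bb-ps had 8, 36 and 33 reads in high 1 to 3 and 17, 21 and 21 reads in low 1 to 3. These are raw reads, not scaled to library size. The TMM-scaled library size was 5603682 in low 3 and 17968805 to 27969486 in the others, so equal reads mean a higher level in low 3. Hist1h2aj had 0 to 2 reads per library and Hist1h2al had 0.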
